A study of Mus musculus with 6 samples.

Results

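The circadian clock genes described here are Arntl, Clock, Npas2, Per1, Per2, Per3, Cry1, Cry2, Dbp and Nr1d1. They were chosen as core clock genes by gene symbol, with no value used in the rule although earlier results of these data were known, and all 10 were found among the 54093 genes of the table, each symbol once. The right atria (RAs) came from C57BL/6 mice of WT genotype at P21, male or female. In the VO group an aortocaval fistula (ACF), a needle puncture from the abdominal aorta into the inferior vena cava, had been made at P7 so that the RA received a volume overload. The sham group had been sham-operated at the same age, and each group held 3 RNA-seq libraries, named here sham 1 to sham 3 and VO 1 to VO 3. The hour of tissue collection was not given in the sources used here, so hour of collection and group cannot be told apart. Nor do the labels say whether each library came from a separate animal, so the p-values measure the spread between these libraries, which may be technical.

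The mammalian clock is a feedback loop of transcription. BMAL1 (encoded by Arntl) pairs with CLOCK or NPAS2 and activates genes with an E-box, among them Per, Cry, Nr1d1 and Dbp, while PER and CRY proteins repress that activity and REV-ERBα (encoded by Nr1d1) represses Arntl. In heart muscle, as in other tissues outside the brain, Arntl and Npas2 are known to peak at the opposite side of the day from Nr1d1, Dbp and Per, and DBP passes the rhythm to genes with a D-box.

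None of the 10 clock genes differed between VO and sham RAs beyond the spread between libraries, and the libraries of the 2 groups overlapped for every one of them. Of all 12627 tested genes, 1 was called after adjustment and 12.0% at an unadjusted p under 0.05 (limma), and 21.2% were without overlap. The position of single libraries within the groups varied. Sham 1 and VO 1 both had the highest Arntl, Clock and Npas2 of their group together with the lowest Per1, Per2, Cry2 and Nr1d1, while Per3 and Dbp were lowest in 1 of these libraries and Cry1 in neither. These 2 libraries were also often at the ends over all tested genes: of the 6 libraries, sham 1 was highest in 29.0% and lowest in 23.1% of genes, and VO 1 highest in 25.4% and lowest in 32.6%. On that same count over 6 libraries, sham 1 was highest in 1 (10%) and lowest in 3 (30%) of the 10 clock genes. VO 1 was highest in 3 (30%) and lowest in 3 (30%). The share of all tested genes at the ends within a group was not computed.

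The letters bound by the clock's own factors were searched on both strands of promoters from RefSeq (GRCm38.p6), each a window of 250 bases before to 50 bases after a transcription start. Of the 10 genes, 9 had an entry, with 13 promoters in all, and Per2 had none. Stretches around the motifs are shown because they carry the sites by which the loop is thought to close. They are written 5′ to 3′ on the strand of the gene, with the motif in capitals. The E-box CACGTG or its variant CACGTT, which reads AACGTG on the other strand, is marked in Cry1, Cry2, Per1 and Nr1d1, the D-box TTATGTAA in Per3, and the core of the ROR element TAGGTCA, the site class read by REV-ERBα and ROR receptors, in Arntl.
Cry1, chr10:85185092-85185151, minus strand: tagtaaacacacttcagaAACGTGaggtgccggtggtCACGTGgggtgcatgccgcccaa
Cry2, chr2:92434203-92434262, minus strand: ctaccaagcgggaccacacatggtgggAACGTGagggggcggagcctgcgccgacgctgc
Per1, chr11:69098756-69098815, plus strand: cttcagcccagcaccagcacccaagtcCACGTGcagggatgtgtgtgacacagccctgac
Nr1d1, chr11:98775378-98775432, minus strand: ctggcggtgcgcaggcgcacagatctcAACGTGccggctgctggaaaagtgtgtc
Per3, chr4:151044806-151044880, minus strand: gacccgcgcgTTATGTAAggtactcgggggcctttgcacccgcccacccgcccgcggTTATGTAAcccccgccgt
Arntl, chr7:113207529-113207558, plus strand: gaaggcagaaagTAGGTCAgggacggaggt
All but the Arntl stretch lie before the start, and the Per1 stretch lies before a start inside the annotated gene. Among all 32851 promoters of the same length, 7.15% held CACGTG, 4.68% CACGTT, 0.94% TTATGTAA and 2.61% TAGGTCA on either strand. A match of letters is a description of the sequence, and a window without a match says nothing about binding.

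Levels are given as FPKM, fragments per kilobase of gene length scaled per library, so that genes can be set side by side per length. The deposited scaling already included a normalization and did not rest on the fragment total of each library alone. Nr1d1 had the highest level of the 10, with 28.5 FPKM as the mean of 6 libraries, followed by Dbp with 20.7 and Per1 with 14.7. Neighbours among these 3 also overlapped in range, and in sham 1 Nr1d1 was below Dbp, while Dbp was above Per1 in every library. Per3 (7.40), Per2 (7.19), Clock (6.73), Cry2 (6.51) and Cry1 (6.49) came next, and their ranges over the libraries overlapped, so these 5 could not be ranked as a whole. Within every library, Per3 was above Cry2. Npas2 with 1.56 FPKM and Arntl with 1.22 FPKM were lowest. Their ranges overlapped, but within every library Npas2 was above Arntl. From 91 to 1889 fragments stood behind each single value, the fewest in Npas2 and the most in Clock. In bulk RNA, fewer cells of a type and less RNA per cell cannot be told apart.

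**Figure D1:**
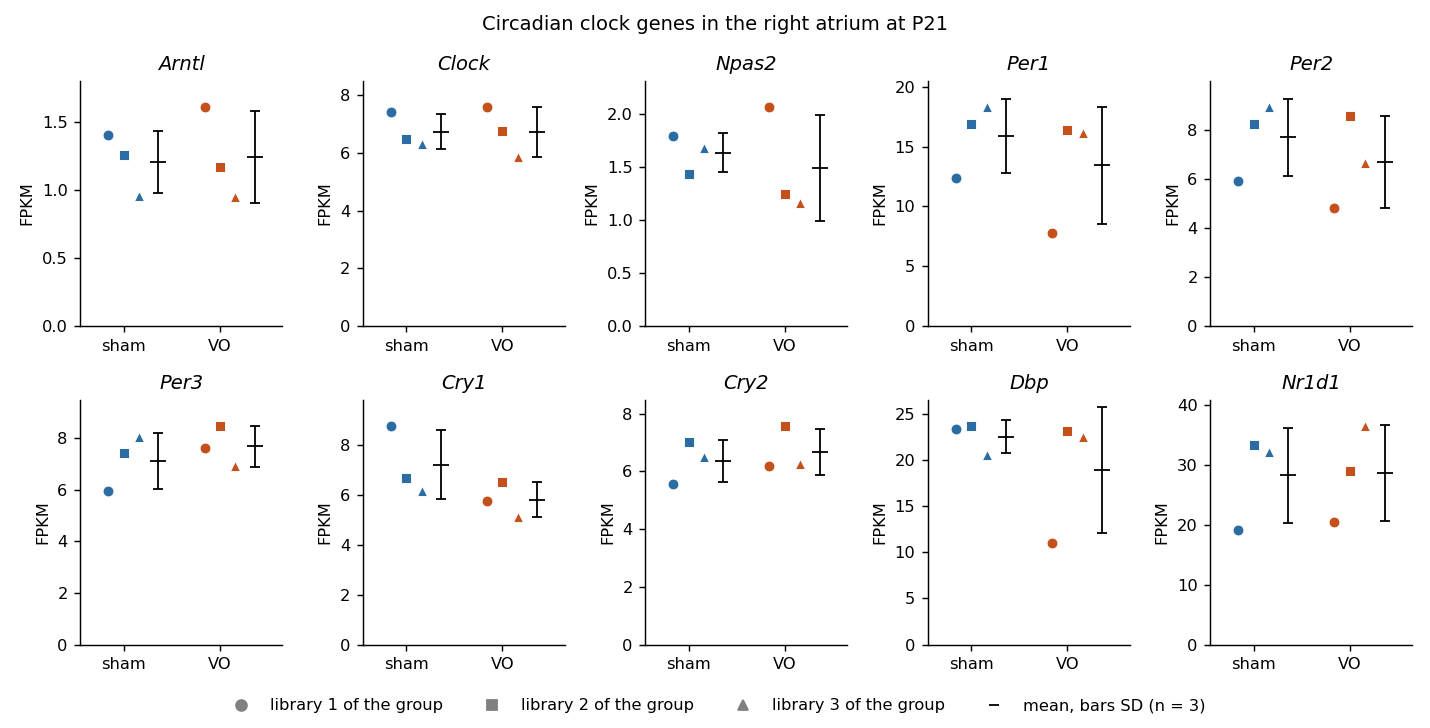
FPKM (linear axes from 0) of the 10 clock genes in the 3 sham (blue) and 3 VO (orange) libraries, with the mean and SD of each group in black. The symbols mark libraries 1 to 3 of a group, and the 2 groups overlap in all 10 panels; Per1 ran from 7.81 FPKM in VO 1 to 18.3 in sham 3.

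The libraries themselves held 15963082 to 17237903 fragments on genes. The atrial markers Nppa, Myl7, Myl4, Sln and Bmp10 were abundant, with a summed FPKM of 12108 to 18161 in sham and 5602 to 11423 in VO, lowest in VO 1. Leukocyte markers summed to 147 to 171 FPKM in sham and to 634, 172 and 214 in VO 1, VO 2 and VO 3. Brown adipocyte markers summed to 3.50 to 7.71 FPKM in 5 libraries and to 368 in VO 3, where Ucp1 was 254 FPKM and 0 in the other 5. Ventricular myocyte markers summed to 119 to 306 FPKM in sham and 90.8 to 142 in VO, with Irx4 at or under 0.26. Most of the sum was Myl3, at 83.8 to 246 FPKM. Myl2 varied strongly between libraries, with 60.4, 2.02 and 56.0 FPKM in sham and 6.95, 1.54 and 20.6 in VO. Fibroblast markers summed to 491 to 504 and 494 to 642, endothelial markers to 120 to 127 and 128 to 134, and mesothelial markers to 23.9 to 74.4 and 27.5 to 62.9, in sham and VO respectively. Skeletal muscle and thymocyte markers stayed at or under 2.43 and 1.31 FPKM, with Myh1 at 0 in every library. In sham 1 the atrial sum was 18161, against 12140 and 12108 in sham 2 and sham 3. Sham 1 also had the highest ventricular sum (306) and the lowest mesothelial sum (23.9). Sham 2 had the highest mesothelial sum (74.4), and its Myl2 was far below that of sham 1 and sham 3. Single libraries of both groups thus stood apart in some marker levels. The part of this in the clock gene values was not tested beyond leaving out each library in turn.

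The difference between VO and sham was estimated with limma on log2(FPKM + 0.1) over the 12627 genes with a mean of at least 1 FPKM, a filter that all 10 clock genes passed. The number of clock genes called at an adjusted p under 0.05 was 0, against 1 gene in all (0.00792% of the tested genes). The authors reported many more genes at that threshold with DESeq2, a test on counts. A number of 0 here is therefore no evidence that these genes were unchanged. At an unadjusted p under 0.05 the number was again 0 of 10 with limma, beside 12.0% of all tested genes, of which 3.89% of tested genes were higher and 8.08% lower in VO. With voom on the recovered fragments it was also 0 of 10, beside 13.4% of tested genes. Groups without overlap were found in 0 of 10 clock genes and in 21.2% of tested genes. The number of clock genes was 2 without sham 3 and 1 without sham 1, VO 1 or VO 2. Smaller groups are more easily without overlap. The share of all tested genes was not computed with a library left out, so the 21.2% is no measure for these counts. The estimates were above 0 for 4 clock genes and below 0 for 6, with a median log2 fold change of -0.09, beside -0.01 over all tested genes. With 3 libraries on each side, the smallest p that an exact permutation test allows is 0.1.

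How far zero lies from these estimates depends on the scaling. On TPM, 1087 genes were higher and 485 lower at an unadjusted p under 0.05, with a median log2 fold change of 0.13 over all genes, and with voom 1092 were higher and 598 lower, with a median of 0.09, against 491 higher and 1020 lower with FPKM. Directions of estimates near 0 are therefore relative to the scaling used.

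**Figure D2:**
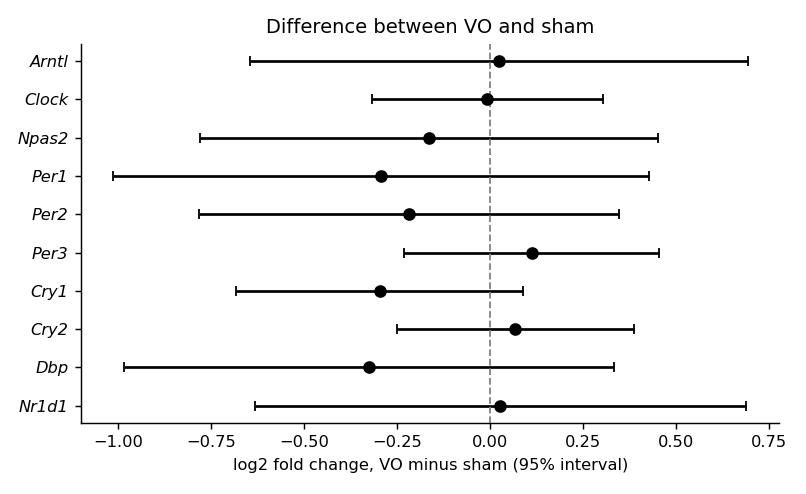
Log2 fold change of VO minus sham for the 10 clock genes (points) with 95% intervals from limma (bars); the dashed line marks no difference. Each of the 10 intervals includes 0, and the widest, of Per1, runs from -1.01 to 0.43.

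In the activating arm, Arntl (ENSMUSG00000055116, chr7:113207465-113314126, plus strand), which encodes BMAL1, was read at 1.40, 1.26 and 0.955 FPKM in sham 1, sham 2 and sham 3 and at 1.60, 1.17 and 0.946 in VO 1, VO 2 and VO 3. Both groups ran from library 1 at the top to library 3 at the bottom, and they overlapped almost entirely. The group means were 1.20 ± 0.228 and 1.24 ± 0.335 FPKM (SD, n = 3 libraries each), and the log2 fold change was 0.02 (SE 0.28, 95% interval -0.65 to 0.69, limma adjusted p = 0.97).

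Clock (ENSMUSG00000029238, chr5:76209868-76304792, minus strand), the partner of BMAL1, had the narrowest range of the 10. It was read at 7.43, 6.48 and 6.31 FPKM in sham and 7.58, 6.75 and 5.85 in VO, with means of 6.74 ± 0.603 and 6.73 ± 0.867. Its highest library was 1.30 times its lowest, and the order of the libraries in each group was that of Arntl. The log2 fold change was -0.01 (SE 0.13, interval -0.32 to 0.30, adjusted p = 0.98).

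Npas2 (ENSMUSG00000026077, chr1:39193731-39363236, plus strand) encodes a paralogue of CLOCK that can take its place beside BMAL1. Its values were 1.78, 1.43 and 1.68 FPKM in sham and 2.06, 1.24 and 1.15 in VO. VO 1 was the highest and VO 3 the lowest of all 6 libraries, so the VO values enclosed those of sham. The log2 fold change was -0.17 (SE 0.26, interval -0.78 to 0.45, adjusted p = 0.77). Without VO 1 the estimate was -0.41. Over the 3 activators the median log2 fold change was -0.01, and it was -0.17 without VO 1, -0.12 without sham 3 and 0.13 on TPM.

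The Per genes encode the period proteins, which enter the nucleus with CRY and repress CLOCK and BMAL1. Per1 (ENSMUSG00000020893, chr11:69095217-69109960, plus strand), whose E-box stretch is shown above, was read at 12.4, 16.9 and 18.3 FPKM in sham and 7.81, 16.4 and 16.1 in VO. VO 1 stood well below the other 5 libraries and sham 1 was next lowest. The highest library was 2.34 times the lowest, the widest ratio among the clock genes. Means were 15.9 ± 3.08 and 13.5 ± 4.89 FPKM, and the log2 fold change was -0.29 (SE 0.31, interval -1.01 to 0.43, adjusted p = 0.66). Without VO 1 the estimate was 0.06.

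Per2 (ENSMUSG00000055866, chr1:91415982-91459324, minus strand) had nearly the same pattern, with 5.93, 8.23 and 8.92 FPKM in sham and 4.83, 8.58 and 6.65 in VO. VO 1 and sham 1 were again the lowest libraries of the 6. The log2 fold change was -0.22 (SE 0.24, interval -0.78 to 0.35, adjusted p = 0.68), and without VO 1 it was -0.01. Per1 over Per2 was 2.09, 2.05 and 2.05 in sham and 1.62, 1.91 and 2.43 in VO, so the ratio was closely kept in sham and spread more widely around it in VO.

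Per3 (ENSMUSG00000028957, chr4:151003652-151044665, minus strand), the member of the family least needed for the loop, was read at 5.93, 7.41 and 8.03 FPKM in sham and 7.62, 8.47 and 6.92 in VO. Sham 1 was the lowest library, but VO 1 was in the middle of its group, unlike in Per1 and Per2. Its log2 fold change was 0.11 (SE 0.15, interval -0.23 to 0.45, adjusted p = 0.72).

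The Cry genes encode cryptochromes, the strongest repressors of CLOCK and BMAL1. Cry1 (ENSMUSG00000020038, chr10:85131700-85185064, minus strand), with both E-box forms in its stretch above, was read at 8.76, 6.67 and 6.14 FPKM in sham and 5.74, 6.52 and 5.12 in VO. Sham 1 was highest, while VO 2 lay above sham 3, so the groups overlapped by 1 library. Means were 7.19 ± 1.38 and 5.79 ± 0.703 FPKM. Its log2 fold change of -0.30 (SE 0.16, interval -0.68 to 0.09) had the smallest unadjusted limma p of the clock genes, 0.111, with an adjusted p of 0.46. Without sham 1 the estimate was -0.15.

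Cry2 (ENSMUSG00000068742, chr2:92403646-92434043, minus strand) was read at 5.56, 7.0 and 6.50 FPKM in sham and 6.17, 7.58 and 6.24 in VO. Library 2 was highest and library 1 lowest in both groups. The log2 fold change was 0.07 (SE 0.13, interval -0.25 to 0.39, adjusted p = 0.82). Cry1 over Cry2 was 1.57, 0.952 and 0.945 in sham and 0.930, 0.860 and 0.819 in VO. All 3 VO ratios lay below the sham ratios, narrowly except for sham 1, and this ratio was not tested.

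Nr1d1 (ENSMUSG00000020889, chr11:98767932-98775333, minus strand) encodes REV-ERBα, the nuclear receptor that represses Arntl. It was read at 19.2, 33.4 and 32.2 FPKM in sham and 20.5, 29.0 and 36.5 in VO. Sham 1 and VO 1 stood below the other 4 libraries, and the means of 28.2 ± 7.88 and 28.7 ± 8.03 FPKM were nearly the same. The log2 fold change was 0.03 (SE 0.28, interval -0.63 to 0.69, adjusted p = 0.97). In GENCODE M21, 263 of its exon bases (8.55%) also belong to Thra on the other strand, which was at 17.5 to 20.3 FPKM. Whether fragments were counted by strand was not given in the sources used here.

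Dbp (ENSMUSG00000059824, chr7:45705088-45710203, plus strand) encodes a PAR bZIP activator and is a direct output of the E-box loop. Its values were 23.4, 23.7 and 20.5 FPKM in sham and 11, 23.2 and 22.5 in VO. VO 1 was far below the other 5 libraries, which stayed within 20.5 to 23.7 FPKM. Sham 1, low in Per1, Per2 and Nr1d1, was not low in Dbp. The log2 fold change was -0.33 (SE 0.28, interval -0.98 to 0.33, adjusted p = 0.60), and without VO 1 it was 0.02. Of its exon bases, 539 (18.0%) are shared with Sphk2 on the other strand, which was at 3.82 to 5.98 FPKM. Exon bases shared by Cry2 with D930015M05Rik (4.67%) and by Arntl with Gm45355 (0.439%) were fewer, and these other genes stayed at or under 0.516 FPKM.

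Over the 7 repressors and outputs the median log2 fold change was -0.22, and it was 0.06 without VO 1. The within-group spread of the clock genes, as an SD on the log2 scale, was smallest in Clock (0.16), Cry2 (0.17) and Per3 (0.19). It was largest in Per1 (0.48), Dbp (0.43) and Nr1d1 (0.43). The median over all tested genes was 0.20, and 7 of the 10 clock genes lay above it and 0 above the 90th percentile.

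**Figure D3:**
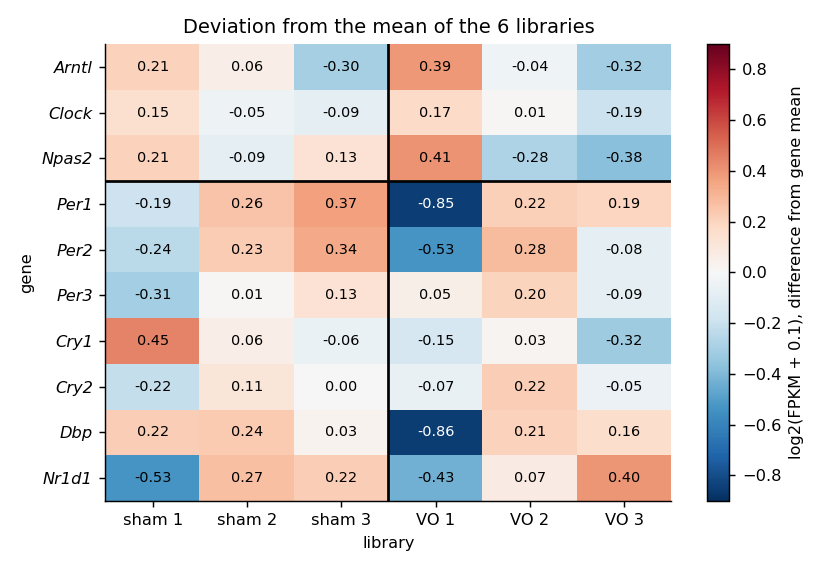
Heat map of log2(FPKM + 0.1) of each clock gene (rows) in each library (columns) as a difference from the mean of that gene over the 6 libraries. Sham 1 and VO 1 are above the mean in Arntl, Clock and Npas2 and below it in Per1, Per2 and Nr1d1, with the lowest values in Dbp (-0.86) and Per1 (-0.85) of VO 1.

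The phase relation of the 2 arms was read from the order of the libraries. In sham 1 the deviations from the mean of 6 libraries, on the log2 scale, were 0.21 for Arntl and 0.21 for Npas2, and in VO 1 they were 0.39 and 0.41. In the same libraries the deviations of Nr1d1 were -0.53 and -0.43. VO 3 stood at the other end in these 3 genes, with -0.32 for Arntl, -0.38 for Npas2 and 0.40 for Nr1d1, and it was the lowest of its group in 3 of 3 activators. Most of the other arm was not high there. Per1 (0.19) and Dbp (0.16) lay above their mean in VO 3, and Per2 (-0.08), Per3 (-0.09), Cry1 (-0.32) and Cry2 (-0.05) below it. Of the 7 repressors and outputs, sham 1 and VO 1 each were the lowest of their group in 5, and VO 2 was the highest of its group in 6. VO 3 was the highest of its group in 1 of the 7 and the lowest in 2. For these counts within a group, the share of all tested genes was not computed. Cry1 did not follow this order, since its highest value of all was in sham 1.

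Arntl over Nr1d1, a ratio of FPKM values from opposite arms of the loop, set the libraries in the same order in both groups. It was 0.0731, 0.0377 and 0.0297 in sham and 0.0783, 0.0401 and 0.0259 in VO. The first library of each group was far above the others, and the group means of 0.0468 ± 0.0231 and 0.0481 ± 0.0271 differed by less than the spread. Arntl over Per1 gave the same order, with 0.113, 0.0743 and 0.0523 in sham and 0.205, 0.0710 and 0.0586 in VO. Both ratios share Arntl, which had this order by itself, so their order adds no further evidence. Replicate numbers were not taken as pairs, and 13.3% of all tested genes had the same order in both groups. Arntl over Dbp singled out VO 1 alone, with 0.145 against 0.0421 to 0.0599 in the other 5 libraries.

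Across the 6 libraries, Arntl was correlated with each of the other 9 genes on log2(FPKM + 0.1). The libraries share their depth and cell makeup with all genes in them. With Clock, Pearson's r was 0.93 (exact permutation p = 0.011, adjusted over the 9 relations 0.10) and Spearman's rho 0.94 (p = 0.017, adjusted 0.15, exact permutation). Against Per1, r was -0.84 (exact permutation p = 0.033, adjusted 0.14) and rho -0.60 (p = 0.24, adjusted 0.44, exact permutation). Against Nr1d1, r was -0.84 (exact permutation p = 0.047, adjusted 0.14) and rho -0.77 (p = 0.10, adjusted 0.31, exact permutation). None of the 9 relations passed after adjustment, and with 6 libraries the smallest exact permutation p is 0.0028.

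The remaining relations were weaker. For Npas2 r was 0.68 and rho 0.83 (exact permutation p = 0.13 and 0.058, adjusted 0.25 and 0.26). For Per2 they were -0.69 and -0.66 (exact permutation p = 0.14 and 0.17, adjusted 0.25 and 0.39), and for Dbp -0.58 and 0.03 (0.32 and 1, adjusted 0.48 and 1). Cry1 had 0.42 and 0.43 (exact permutation p = 0.41 and 0.42, adjusted 0.52 and 0.54), the only repressor with a positive sign in r, and Per3 and Cry2 had r of -0.24 and -0.27 and rho of -0.14 and -0.43 (p of r 0.67 and 0.58, adjusted 0.67 and 0.66, and p of rho 0.80 and 0.42, adjusted 0.90 and 0.54). In all, r was above 0 for 3 genes and below 0 for 6, and the sign of r was the same in 9 of 9 after the group means were removed, where r was 0.93 for Clock, -0.88 for Per1 and -0.85 for Nr1d1. The group means of Arntl were nearly equal (log2 fold change 0.02), so their removal could hardly turn a sign.

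When the 2 libraries farthest from the median of Arntl, VO 1 and VO 3, were left out, r over the remaining 4 was 0.81 for Clock, -0.84 for Per1, -0.81 for Per2 and -0.68 for Nr1d1. It was 0.07 for Npas2 and 0.84 for Cry1, while Per3 gave -0.75 and Cry2 -0.38. For Dbp the sign turned, to 0.89, so its relation with Arntl rested on those libraries.

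**Figure D4:**
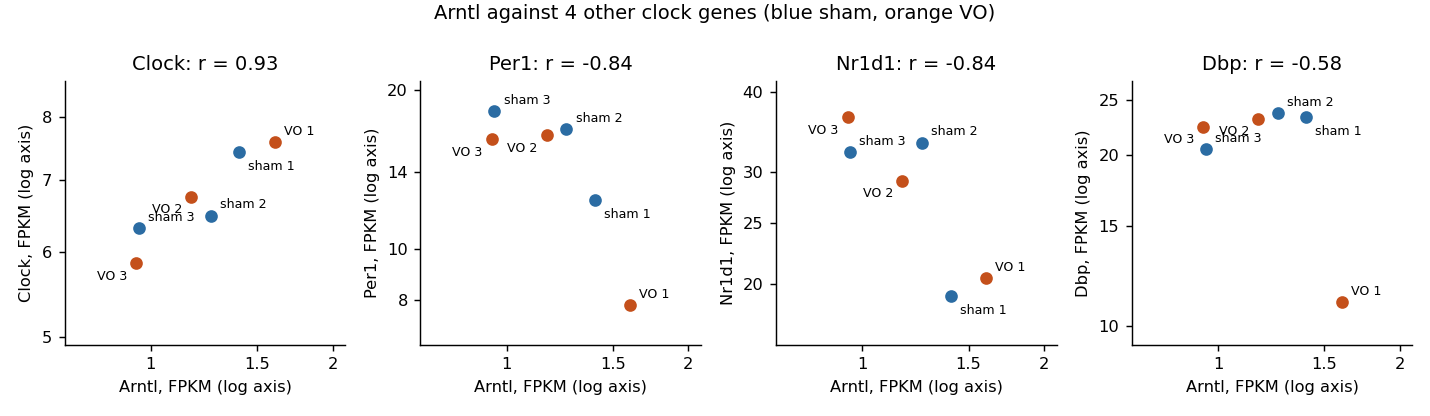
Arntl (x axis) against Clock, Per1, Nr1d1 and Dbp (y axes) in FPKM on log axes, 1 point per library (sham blue, VO orange), with r from log2(FPKM + 0.1) above each panel. Clock is higher where Arntl is higher, Per1 and Nr1d1 are lowest in sham 1 and VO 1, where Arntl is highest, and in Dbp VO 1 alone stands below the other 5 libraries.

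Other tested genes with patterns most like that of Arntl over the 6 libraries were Rinl (r = 0.99), Slc4a1 (0.99) and Tcf19 (0.98), and those most opposite were Gm10074, Mvb12b and 4930466K18Rik (-0.97 each). Rinl, for example, was at 1.49, 1.15 and 0.830 FPKM in sham and 1.83, 1.07 and 0.822 in VO. Slc4a1 was at 1.73, 1.11 and 0.226 in sham and 3.88, 0.527 and 0.273 in VO. The part of cell makeup in the Arntl pattern was not tested. For Dbp they were Klc1 (1.0), Mtfr1 (0.99) and Sox17 (0.99), and at the opposite end Ctso, Clec4n and Ncf1 (-1.0 each). Clec4n, a lectin of myeloid cells, was at 1.76 to 2.90 FPKM in 5 libraries and at 9.90 in VO 1, and Ncf1, a subunit of the phagocyte NADPH oxidase, at 2.57 to 2.97 and 6.91. The likeness to Dbp thus followed a single library, VO 1, which also had the highest sum of leukocyte markers. The part of that library's cell makeup in its Dbp value was not tested.

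Another 22 clock genes were listed, chosen like all lists here with earlier results of these data known, and 20 of them were tested. At an unadjusted p under 0.05, 0 were higher and 0 lower in VO (against 3.89% and 8.08% of all tested genes), with 7 estimates above 0, 13 below and a median log2 fold change of -0.02. With voom the number at that threshold was 1, Gsk3b, a kinase of clock proteins, named here after its value was seen. The 3 groups of roles gave the following values.

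Among receptors of the ROR element, Nr1d2, which encodes REV-ERBβ, was read at 56.6, 54.1 and 58.3 FPKM in sham and 43.1, 53.4 and 57.4 in VO (log2 fold change -0.15, SE 0.13). Rora, an activator at the same element, was at 7.49, 5.96 and 7.01 in sham and 6.88, 7.31 and 5.86 in VO (-0.03, SE 0.13). Nr1d2 did not share the low sham 1 value of its paralogue Nr1d1.

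Among PAR bZIP factors and their antagonist, Tef was at 34.4, 35.2 and 38.0 FPKM in sham and 27.2, 35.3 and 32.6 in VO (-0.19, SE 0.12). Hlf was at 12.1, 15.4 and 16.1 in sham and 9.99, 14.9 and 16.2 in VO (-0.10, SE 0.21). Nfil3, the repressor at the D-box, was at 4.70, 3.49 and 4.36 in sham and 4.76, 3.39 and 4.80 in VO (0.04, SE 0.18). Hlf was low in sham 1 and VO 1, as Per1 and Nr1d1 were, and Tef and Nfil3 in VO 1 and in the libraries numbered 2, respectively.

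Among further E-box repressors, Bhlhe40 was at 11, 13.9 and 14.7 FPKM in sham and 17.2, 14.4 and 14.5 in VO (0.22, SE 0.14), with sham 1 lowest and VO 1 highest of all. Bhlhe41 was at 1.73, 2.24 and 2.30 in sham and 1.90, 2.15 and 2.13 in VO (-0.01, SE 0.17). Ciart, a repressor of CLOCK and BMAL1, was at 1.17, 1.33 and 1.36 in sham and 0.658, 1.33 and 0.968 in VO (-0.40, SE 0.30). The adjusted p of these 8 genes lay between 0.50 and 0.98. VO 1 was the lowest of the 6 libraries in 11 of the 20 genes (55%), against 32.6% of all tested genes.

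A list of 20 genes of heart metabolism, excitation and growth that are thought to be under clock control was examined as well, of which 19 were tested. At an unadjusted p under 0.05, 2 were higher and 3 lower in VO, 14 did not pass, and 0 passed after adjustment, beside 3.89% higher and 8.08% lower of all tested genes. The count of 5 was 3 without sham 2 or without sham 3. Ucp3, a mitochondrial uncoupling protein, was at 4.02, 1.5 and 1.82 FPKM in sham and 8.47, 10.1 and 7.16 in VO (log2 fold change 1.88, SE 0.35, adjusted p = 0.28). Pdk4, the kinase that limits pyruvate oxidation, was at 140, 77.3 and 119 in sham and 147, 193 and 233 in VO (0.79, SE 0.26, adjusted p = 0.40). All 3 VO libraries lay above all sham libraries in both genes.

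On the lower side, Klf15, a direct clock target that controls metabolism and ion channel rhythms, was at 34.1, 33.1 and 33.8 FPKM in sham and 10.4, 24.5 and 23.3 in VO (-0.89, SE 0.31, adjusted p = 0.41). Kcnh2, a repolarizing potassium channel, was at 56.9, 54.6 and 48.9 in sham and 32.3, 46.6 and 36.9 in VO (-0.48, SE 0.15, adjusted p = 0.40). Both were below sham in all 3 VO libraries and lowest in VO 1. Adora1, the adenosine A1 receptor, was at 3.88, 3.06 and 4.10 in sham and 2.26, 2.53 and 3.24 in VO, with overlap (-0.45, SE 0.18, adjusted p = 0.41). The median log2 fold change of the list was -0.23, beside -0.01 over all tested genes, and VO 1 was the lowest library in 13 of 19 genes (68.4%). The summed FPKM of atrial myocyte markers was lowest in VO 1 too, and its part in these values was not tested.

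**Figure D5:**
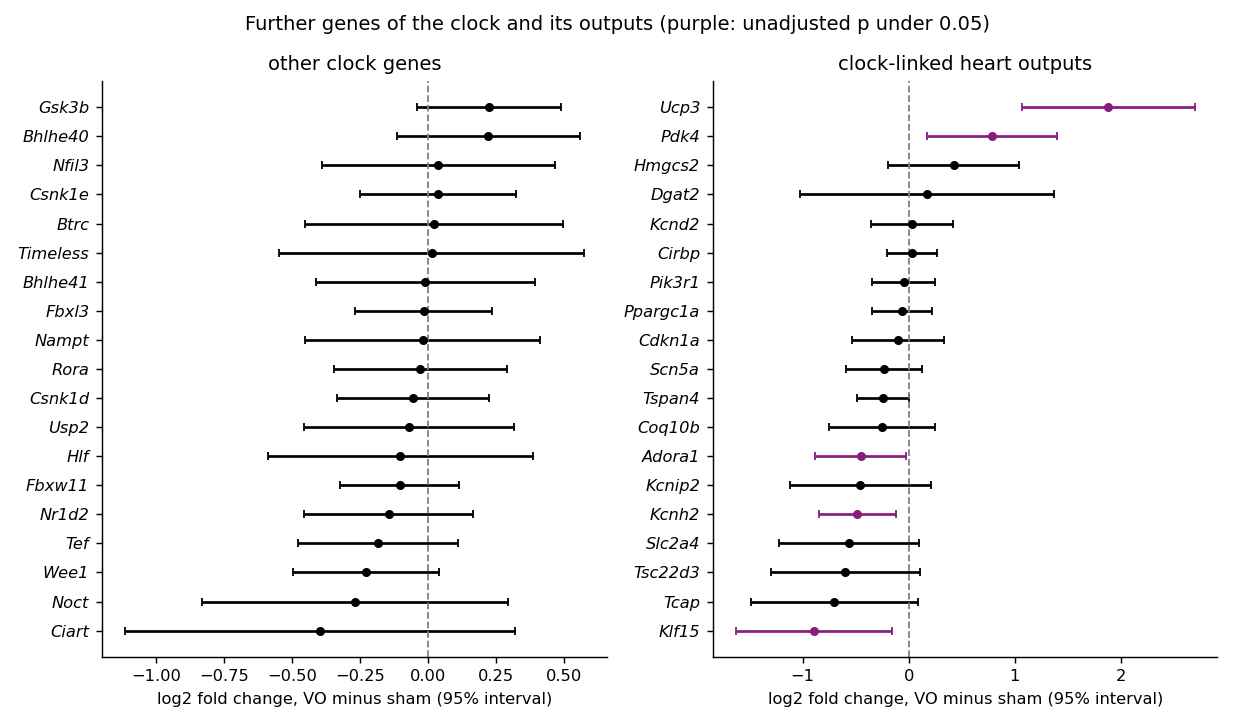
Log2 fold change of VO minus sham with 95% intervals from limma for 19 further clock genes (left) and 19 clock-linked heart genes (right), with genes at an unadjusted p under 0.05 in purple. Every interval of the left panel includes 0, while Ucp3, Pdk4, Adora1, Kcnh2 and Klf15 stand away from it on the right.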

How the data were processed

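RNA from the RAs of 3 sham and 3 VO libraries was examined as the gene table of FPKM values that the authors deposited. Per the submitters' processing notes, reads were aligned with HISAT2 2.0.5 and counted with featureCounts 1.5.0-p3, with GRCm38 named as a build, and DESeq2 1.16.1 was used by the authors for their own test. Of the table, 54093 complete genes were used, 1 incomplete last line was left out, and 0 value columns belonged to no sample. Each FPKM value times gene length was a whole multiple (within 0.01) of a step fitted per library, for 100% of values above 0. That step was taken as 1 fragment. Median-of-ratios factors were 1 throughout, so a scaling was already included. Per kilobase of gene, 1 FPKM corresponded to 15.6 to 18.1 fragments. Gene coordinates were identical to GENCODE M21 for 98.4% of 54039 shared genes.

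The members and gene lists were chosen with earlier results of these data known. Genes averaging 1 FPKM or more were tested on log2(FPKM + 0.1), a scale that understates changes of low genes, with limma 3.58.1 in R 4.3.3 (lmFit, eBayes with trend, two-sided, Benjamini-Hochberg over 12627 genes, threshold 0.05), without covariates. The fit was tested on simulated data. Named were the 10 clock genes, 9 further clock genes whatever their values (1 of them is not reported here), list members at an unadjusted p under 0.05 (at most 6 per list), and the 3 most and least alike genes by r to Arntl and to Dbp. Correlations used exact permutations in scipy 1.17.1, and figures matplotlib 3.10.9. Replicate numbers were not taken as pairs. Alternatives were other pseudocounts (1, 0.01), other filters (0.1 FPKM, 5 FPKM, none), FPKM without further scaling, TPM, quantile normalization, eBayes without trend or robust, voom on recovered fragments, array weights, a replicate block, and each library left out.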

Additional observations from a re-analysis of the deposited data

How the results depend on the processing

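Under all 19 alternatives, 0 clock genes reached an adjusted or unadjusted p under 0.05, and the smallest unadjusted limma p, of Cry1, was 0.063. With 3 libraries per group, the 95% intervals of Clock and Cry2 still allow log2 differences of up to 0.30 and 0.39 above 0, and that of Per1 reaches -1.01. Small estimates turned with the setting, and the cause was not tested: the log2 fold change of Clock was 0.13 on TPM and 0.0902 with voom, that of Arntl -0.0714 with quantile normalization and that of Nr1d1 -0.0202 with array weights. On TPM, r of Arntl with Per3 was 0.23 and with Cry2 0.22. With Nr1d1 it shrank to -0.51 (exact permutation p = 0.33), with Per1 to -0.77 (exact permutation p = 0.14) and with Per2 to -0.48. It was larger in size for Clock (0.95), Npas2 (0.74), Cry1 (0.50) and Dbp (-0.65). The opposition of Arntl to Nr1d1, Per1 and Per2 therefore depended in size on the scaling. When single libraries were dropped, the log2 fold change ran from -0.17 (without VO 1) to 0.19 (without VO 3) for Arntl, -0.0977 to 0.0882 for Clock, -0.41 (without VO 1) to -0.02 (without VO 3) for Npas2, -0.40 (without sham 3) to -0.15 (without sham 1) for Cry1, -0.23 (without sham 1) to 0.25 (without VO 1) for Nr1d1, -0.0162 (without sham 1) to 0.20 for Per3 and -0.0290 (without VO 2) to 0.13 for Cry2. Both Per1 and Dbp were above 0 only without VO 1, with ranges of -0.48 to 0.0553 and -0.51 to 0.0197. The median of repressors and outputs ran from -0.39 (without VO 2) to 0.0553 (without VO 1). The number of clock genes without overlap ran from 0 to 2 (2 without sham 3), with no share of all tested genes computed for the smaller groups. That of clock-linked heart outputs at an unadjusted p under 0.05 ran from 3 (without sham 2 or sham 3) to 6 (without VO 2 or VO 3). Of the other clock genes, 1 passed that p on TPM and 1 with voom. A mean FPKM of at least 5 left out Arntl and Npas2. With the replicate number as a block, 324 genes were higher and 608 lower at an unadjusted p under 0.05, 0 of them clock genes, and the block changed no call of theirs. After removal of group means, the correlation between same-numbered libraries was -0.108, 0.0112 and -0.0292 over all tested genes and 0.617, 0.441 and 0.501 over the clock genes, where sham 2 correlated higher (0.673) with VO 3. The order of libraries was the same in both groups in 3 of 10 clock genes (Arntl, Clock, Cry2) and in 13.3% of all tested genes.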

Other observations

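Glucocorticoid hormone follows the day and can reset clocks outside the brain, so a list of 12 genes it induces was examined, of which 11 were tested. At an unadjusted p under 0.05 in limma, 2 were higher in VO (Pdk4, which is also on the list of heart outputs, and Mt1) and 2 lower (Klf9 and Sgk1), with 0 after adjustment, beside 3.89% higher and 8.08% lower of all tested genes, and the median log2 fold change was -0.32. Mt1, a metallothionein, had a mean of 52.5 ± 4.91 FPKM in sham and 72.1 ± 14.8 in VO (SD, n = 3 libraries each), with overlap. Klf9, a transcription factor, had 86.4 ± 5.66 and 62.5 ± 14.9, and Sgk1, a kinase, 21.6 ± 3.05 and 16.7 ± 1.57, both without overlap. Tsc22d3, which encodes GILZ and did not pass, was at 110, 99 and 99.8 FPKM in sham and 41.1, 97.9 and 77.7 in VO. VO 1 was the lowest of the 6 libraries in 8 of the 11 genes (72.7%), against 32.6% of all tested genes.

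Among 12 immediate early genes, which respond to handling and stimulation and include inducers of Per1, 10 were tested. Of these, 0 were higher and 1 was lower in VO at an unadjusted p under 0.05, a share near the 8.08% of all tested genes that were lower. The gene, Nr4a1, an orphan nuclear receptor, had a mean of 10.7 ± 5.0 FPKM in sham and 5.52 ± 1.13 in VO (log2 fold change -0.87, SE 0.31, adjusted p = 0.41, limma). The median of the list was -0.09, and the summed FPKM of the list was 88.8 to 120 in sham and 81.4 to 90.5 in VO.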
